A study of Mus musculus with 4 samples.

Results

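The MHC class II antigen presentation genes H2-Aa, H2-Ab1, H2-Eb1, Cd74, Ciita, H2-DMa, H2-DMb1, H2-DMb2 and Cd86 were taken from the RNA-seq counts by their symbols, and all 9 were found among the 53465 genes listed. MDSCs, a mix of immature myeloid cells that expands with a tumor, were sorted from spleens of male BALB/c mice bearing 4T1 mammary tumors and were kept for 6 h in control medium (2 libraries) or with EGCG, a green tea catechin, at 5 μg/mL (2 libraries). Both groups carried the tumor, and tumor-free mice were not analysed here. The mice were 6 weeks old when the tumor cells were injected, the sort used beads against Gr-1, an epitope of Ly-6G and Ly-6C, and the labels place the harvest at day 21, whereas the study's methods place the sort 2 weeks after the injection. Nothing in the sources used here says whether replicates stem from separate mice or wells, so the p values measure the spread between these libraries, which may be technical.

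MHC class II molecules carry peptides from endocytosed proteins to the cell surface and show them to CD4+ T cells. An alpha and a beta chain (H2-Aa with H2-Ab1 for I-A, and the E alpha chain with H2-Eb1 for I-E) fold around the invariant chain, which Cd74 encodes, and the H2-DM dimer later exchanges a fragment of the invariant chain for peptide. Transcription depends on CIITA, a coactivator that is recruited by proteins bound to the X and Y boxes of the promoters, and CD86 is a costimulatory ligand for CD28 on the T cell. B cells, dendritic cells and macrophages are the usual class II-positive cells of the spleen, whereas neutrophils and immature myeloid cells carry little.

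In these MDSC cultures the class II genes showed no change that passed the test. The means of H2-Aa, H2-Ab1, H2-Eb1 and Cd74 differed between EGCG and control by at most 0.03 on the log2 scale, and the libraries of both groups overlapped. Ciita was the member with the largest difference, a log2 fold change of -0.31 (standard error, SE, 0.14), and it did not pass after adjustment either (0.387 as its Benjamini-Hochberg adjusted p in the quasi-likelihood, or QL, test of edgeR).

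RefSeq promoter windows (GRCm38.p6, from 250 bases before to 50 after a transcription start) were at hand for 5 members, which are H2-Aa, H2-Eb1, H2-DMa, H2-DMb1 and H2-DMb2. The windows of H2-Ab1, Cd74, Ciita and Cd86 were not used here. The letters searched on both strands were GATTGG for the Y box, the site of NF-Y, AACNGATG for the X box, where RFX binds, and TGACGTCA for the adjoining X2 box of the CREB family, and these letters were picked after the windows had been read. The 3 stretches below are shown because they carry these boxes in front of an alpha chain, a beta chain and a DM chain, with the matched letters in capitals. They belong to the C57BL/6J reference, 5′ to 3′ on the strand of the gene, from 150 to 26 bases before the start: chr17:34287849-34287973 on the minus strand for H2-Aa, chr17:34305717-34305841 on the plus strand for H2-Eb1 and chr17:34145099-34145223 on the plus strand for H2-DMb2.
H2-Aa: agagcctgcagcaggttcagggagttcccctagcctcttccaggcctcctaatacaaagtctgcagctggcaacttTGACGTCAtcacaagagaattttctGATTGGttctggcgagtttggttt
H2-Eb1: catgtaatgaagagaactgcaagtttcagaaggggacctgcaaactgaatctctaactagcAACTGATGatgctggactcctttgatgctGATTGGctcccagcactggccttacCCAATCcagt
H2-DMb2: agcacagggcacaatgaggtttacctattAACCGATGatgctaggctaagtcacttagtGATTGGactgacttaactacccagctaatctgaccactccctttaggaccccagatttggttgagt
In H2-Eb1, the X box letters lay 89 to 82 bases before the start and were followed after 21 bases by GATTGG, with a further match on the opposite strand. H2-DMb2 and H2-DMb1 had the X box letters 22 bases before GATTGG, with AACCGATG as the matched letters in H2-DMb2 and AACTGATG in H2-DMb1. H2-Aa lacked AACNGATG but held TGACGTCA, 17 bases before its GATTGG. For comparison, 16.1% of 32851 promoter windows held GATTGG, 2.32% held AACNGATG, 1.79% held TGACGTCA and 0.335% held both GATTGG and AACNGATG. Of the 2 starts listed for H2-DMa, 1 window held GATTGG alone and the other held none of the letters, which says only that these letters are not in that window. GENCODE M21 places an earlier start for H2-DMb1, within its RefSeq window and ahead of the matches. By that annotation the matches lie inside the gene, so no sequence of that gene is printed. The H2-DMb2 stretch lies before its RefSeq start but inside the GENCODE span of the gene, which begins earlier.

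**Figure D1:**
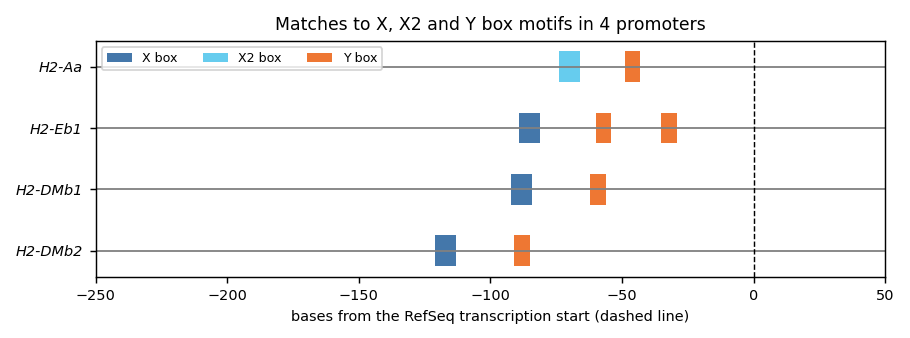
Position of the X box (AACNGATG), X2 box (TGACGTCA) and Y box (GATTGG) matches on either strand in 4 RefSeq promoter windows, in bases from the transcription start at 0. The box nearest to the start is a Y box match in each of the 4 windows, and the X or X2 box match lies 17 to 22 bases before the first Y box match. For H2-DMb1 and H2-DMb2 the matches lie inside the GENCODE span of the gene.

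The 4 libraries held between 17767318 and 18390385 counts on genes, and the 9 class II genes made up 0.206% and 0.181% of them for control and 0.175% and 0.198% for EGCG. The QL test of edgeR was run on 14682 genes with enough counts, all 9 members among them. Levels are given as CPM, counts-per-million with TMM-scaled library sizes, and genes with an adjusted p below 0.05 were called. Of the genes tested, 0.15% were called, 0.136% as lower and 0.0136% as higher with EGCG. The median log2 fold change of all tested genes was 0.0031. BALB/c mice carry other alleles of the class II genes than the C57BL/6J reference, and reads from the most polymorphic exons may be lost in alignment, which was not tested. The same reference served for every library.

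The chains that bind peptide were strongly expressed. H2-Aa (ENSMUSG00000036594), the I-A alpha chain (GRCm38, chromosome 17, 34282744 to 34287823), was at 344.8 and 330.8 CPM in control and 328.6 and 354.4 CPM in EGCG libraries. The highest and the lowest library both belonged to the EGCG group. H2-Ab1 (ENSMUSG00000073421, chromosome 17, 34257689 to 34269419), its beta chain, was at 362.2 and 302.5 CPM in control and 305.7 and 360.4 CPM in EGCG libraries. Control replicate 1 and EGCG replicate 2 were the higher libraries here too. H2-Eb1 (ENSMUSG00000060586, chromosome 17, 34305867 to 34316674), the I-E beta chain, was at 289.1 and 271.5 CPM in control and 265.5 and 295.4 CPM in EGCG libraries. The means were 337.8 ± 9.88 against 341.5 ± 18.2 CPM for H2-Aa, 332.3 ± 42.2 against 333.05 ± 38.7 CPM for H2-Ab1 and 280.3 ± 12.4 against 280.5 ± 21.2 CPM for H2-Eb1 (control against EGCG, SD, n = 2 each).
Cd74 (ENSMUSG00000024610, chromosome 18, 60803848 to 60812652), which encodes the invariant chain, was the member with the most counts. It was at 807.7 and 720.8 CPM in control and 689.8 and 809.3 CPM in EGCG libraries. Control replicate 1 and EGCG replicate 2 were thus nearly equal, and the lowest library was EGCG replicate 1. The log2 fold change was -0.03 for Cd74 (SE 0.09), 0.02 for H2-Aa (0.08), 0.0029 for H2-Ab1 (0.10) and 0.0010 for H2-Eb1 (0.08), and the sign turned with scaling by library size alone for H2-Aa, H2-Ab1 and H2-Eb1. In edgeR QL, 0.937 was the lowest and 0.997 the highest adjusted p among them. The 95% interval, not adjusted for the number of genes, spanned 0.903- to 1.13-fold for H2-Aa, 0.866- to 1.16-fold for H2-Ab1, 0.889- to 1.13-fold for H2-Eb1 and 0.856- to 1.12-fold for Cd74.

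**Figure D2:**
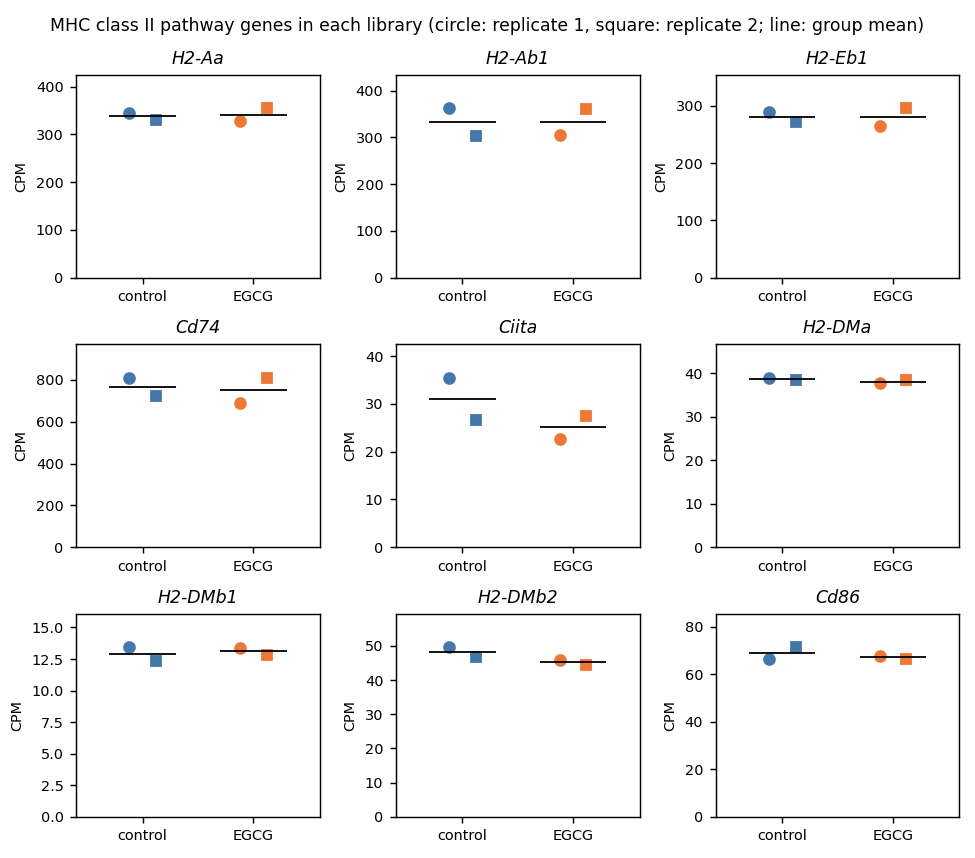
Expression of the 9 class II genes in CPM (vertical axis, linear, from 0), with circles for replicate 1, squares for replicate 2 and a line for the group mean. For H2-Aa, H2-Ab1, H2-Eb1 and Cd74, control replicate 1 and EGCG replicate 2 lie above the other two libraries, and the group means nearly coincide.

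In each of these 4 genes, control replicate 1 and EGCG replicate 2 were the higher libraries. Averaged over them, log2 CPM deviated from the mean of all 4 libraries by 0.07 in control replicate 1, -0.07 in control replicate 2, -0.09 in EGCG replicate 1 and 0.09 in EGCG replicate 2. Each group therefore held a higher and a lower library, and the gap between replicates exceeded the gap between groups. The larger of the replicate gaps was 0.11 on the log2 scale for H2-Aa, 0.15 for H2-Eb1, 0.23 for Cd74 and 0.26 for H2-Ab1. The count ratio of H2-Aa to H2-Ab1 was 0.952 and 1.09 for control and 1.08 and 0.983 for EGCG, so the alpha and beta chains of I-A stayed near the same number of reads. Over all 9 members, the difference between the groups was smaller than the larger replicate gap for 8, the exception being H2-DMb2 by a narrow margin (-0.087 against a gap of 0.0865).

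**Figure D3:**
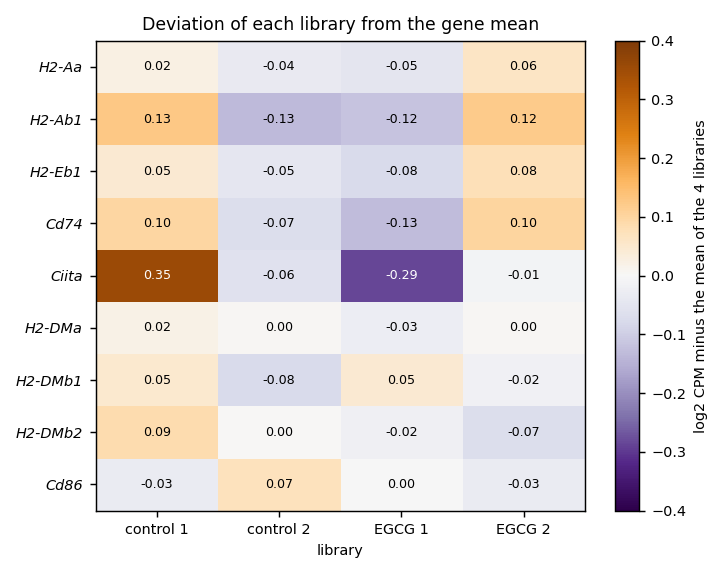
Deviation of log2 CPM from the mean of the 4 libraries, with the 9 genes as rows and the libraries as columns. Ciita has the widest span, from 0.35 in control replicate 1 to -0.29 in EGCG replicate 1, whereas H2-DMa spans 0.05 in all.

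The H2-DM genes, whose products edit the peptides of class II molecules, had far fewer counts. H2-DMa (ENSMUSG00000037649, chromosome 17, 34119541 to 34139101), the DM alpha chain, was at 38.9 and 38.5 CPM in control libraries and 37.7 and 38.5 CPM in EGCG libraries. Its libraries spanned less on the log2 scale than those of any other member (0.05), with a log2 fold change of -0.02 (SE 0.09) and a 95% interval from 0.861- to 1.12-fold. Its exons overlap those of Brd2 on the opposite strand over 360 bases (10.4% of its exonic length), and the counting ignored strand, so its reads could not be separated there.
H2-DMb2 (ENSMUSG00000037548, chromosome 17, 34143307 to 34151555), a DM beta chain, was at 49.6 and 46.7 CPM in control and 46.0 and 44.6 CPM in EGCG libraries. Both EGCG libraries lay below both control libraries, as was the case for 21.2% of all tested genes, and it was the single member with such a separation. Its log2 fold change was -0.09 (SE 0.09, adjusted p of 0.734 by edgeR QL).
The other beta chain, H2-DMb1 (ENSMUSG00000079547, chromosome 17, 34153072 to 34160230), was at 13.4 and 12.3 CPM in control and 13.4 and 12.8 CPM in EGCG libraries, with a log2 fold change of 0.03 (SE 0.13), which turned to -0.0085 with library size only. The groups overlapped, and its interval was the widest among the structural genes, from 0.843- to 1.23-fold. H2-DMb1 and H2-DMb2 lie side by side and resemble each other: 31.4% of the 31-base words of H2-DMb1 transcripts also occur in transcripts of H2-DMb2, so part of their reads may have been lost or exchanged, which was not tested. H2-DMb2 had 3.69 and 3.79 times the counts of H2-DMb1 in the control libraries and 3.43 and 3.48 times in the EGCG libraries. Summed to a single gene, they had a log2 fold change of -0.06 (SE 0.08, adjusted p of 0.818 by edgeR QL).

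Ciita (ENSMUSG00000022504, chromosome 16, 10480059 to 10528418), the coactivator on which class II transcription depends, was at 35.4 and 26.6 CPM in control and 22.7 and 27.5 CPM in EGCG libraries. Control replicate 1 stood above the other three libraries, and EGCG replicate 2 lay above control replicate 2, so that the groups overlapped. The mean was 31.01 ± 6.26 CPM in control and 25.1 ± 3.41 CPM in EGCG libraries (SD, n = 2 each). In edgeR QL the unadjusted p was 0.0392, and the 95% interval ran from 0.661- to 0.988-fold. An unadjusted p under 0.05 was reached by 7.02% of tested genes as lower and by 5.22% as higher (1030 and 767 genes). This split moved with the scaling, to 1406 lower and 472 higher genes with library size only and to 639 lower and 917 higher with the length correction. The value rested on single libraries: leaving out control replicate 1 gave a log2 fold change of -0.08, and leaving out control replicate 2 gave -0.50, where the adjusted p by edgeR QL was 0.0249. With 1 control library left, such a fit takes its spread from the EGCG libraries and assumes that the lone library varies like them. Without EGCG replicate 1 it was -0.17, and without EGCG replicate 2 it was -0.45. The length correction, which removes a trend of counts with gene length in each library, brought it to -0.19 (adjusted p of 0.607), and over the 11 settings other than leaving out a library the adjusted p ran from 0.251 to 0.767. Ciita is transcribed from several promoters in different cell types, which counts per gene do not separate, and 329 bases (3.45% of its exonic length) overlap Dexi on the opposite strand.

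Cd86 (ENSMUSG00000022901, chromosome 16, 36603869 to 36666081), the costimulatory member, was at 66.4 and 71.3 CPM in control libraries and 67.9 and 66.5 CPM in EGCG libraries. The EGCG libraries fell between the control libraries. Its log2 fold change was -0.04 (SE 0.08, adjusted p of 0.903 by edgeR QL), with a 95% interval from 0.865- to 1.10-fold.

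In all, 0 of the 9 members were called by edgeR QL in either direction, beside 0.15% of all tested genes, and 0 by DESeq2. At an unadjusted p under 0.05, edgeR gave 1 member (Ciita), beside 12.2% of all tested genes. DESeq2 gave 0 members at that threshold, beside 542 lower and 380 higher genes of the 14682 tested. Ciita missed this threshold in DESeq2, and also in edgeR without a filter on low counts (p of 0.0822). The same held in edgeR with the replicate block (0.0558) and with the length correction (0.142). Log2 fold changes ran from -0.31 to 0.03 with a median of -0.02, and 4 were above and 5 below 0. For the 8 members other than Ciita, the interval included no change and lay within 0.827- to 1.23-fold. A p value that misses the threshold does not show equal expression.

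**Figure D4:**
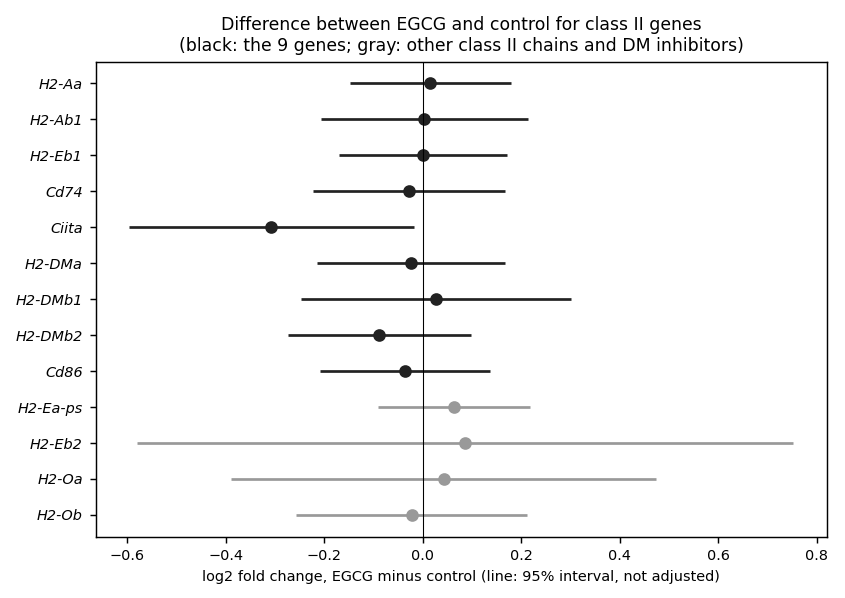
Log2 fold change of EGCG against control (horizontal axis) with its 95% interval, not adjusted for the number of genes, from the QL fit of edgeR. The 9 class II genes are in black, and 4 further class II chains and DM inhibitors are in gray. The intervals include 0 for all genes shown except Ciita.

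Set side by side per kilobase of exonic length, the level was highest for Cd74 (450.8 ± 36.3 CPM per kilobase, SD, n = 4 libraries), followed by H2-Eb1 (144.2 ± 7.29), H2-Ab1 (129.6 ± 12.9) and H2-Aa (89.4 ± 3.20). H2-DMb2 (26.7 ± 1.203), Cd86 (18.6 ± 0.632), H2-DMa (11.1 ± 0.154), H2-DMb1 (7.73 ± 0.315) and Ciita (2.94 ± 0.561) came after them on the same scale. The libraries of H2-Eb1 and H2-Ab1 overlapped, and the other neighbors among the members were apart in all 4 libraries. The order of the peptide-binding chains depends on the length used: with the longest principal transcript in place of all merged exons, an alternative added after seeing the data, H2-Aa came to 301.1, H2-Ab1 to 274.5 and H2-Eb1 to 167.98 CPM per kilobase.

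Among the further class II chains and DM inhibitors, 0 of 4 genes were called by edgeR or DESeq2, 0 had an unadjusted p under 0.05 by edgeR, and the median log2 fold change was 0.05. H2-Ea-ps is the E alpha chain gene, annotated as a pseudogene because the C57BL/6J reference carries a defective copy, whereas BALB/c mice express I-E. It was at 249.3 and 242.8 CPM in control and 256.4 and 257.6 CPM in EGCG libraries, or 242.8 ± 6.65 CPM per kilobase over the 4 libraries. Its counts were 0.863 and 0.894 times those of H2-Eb1 in the control libraries and 0.966 and 0.872 times in the EGCG libraries. Transcripts of both I-E chain genes were thus present in each library, while protein was not measured here. Both EGCG libraries lay above both control libraries, as for 21.5% of tested genes, by a log2 fold change of 0.06 (SE 0.07, adjusted p of 0.779 by edgeR QL). H2-Oa, which with H2-Ob forms the DM inhibitor H2-DO, had a log2 fold change of 0.04 (SE 0.20), and the beta chain gene H2-Eb2, with 30 to 43 counts a library, had 0.09 (0.31).

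Of 16 regulators of class II transcription (the RFX, NF-Y and CREB1 factors, Spi1, interferon regulatory factors, the interferon-gamma receptor with its kinases, and the repressor Prdm1), 0 were called by edgeR or DESeq2. The median was 0.0044, and an unadjusted p under 0.05 by edgeR was found for 2 lower and 0 higher genes. Jak2, a kinase of the interferon-gamma receptor among others, was at 363.6 and 406.9 CPM in control and 319.3 and 347.6 CPM in EGCG libraries. The groups did not overlap, and Jak2 had a log2 fold change of -0.21 (SE 0.08, adjusted p of 0.332 by edgeR QL). Prdm1, which encodes the Ciita repressor Blimp-1, had a log2 fold change of -0.30 (SE 0.13, adjusted p of 0.376). Nfyb, a subunit of the Y box factor NF-Y, had 0.18 (0.10, adjusted p of 0.472).

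The 11 genes of class II loading and turnover gave 0 calls by edgeR or DESeq2 and a median of -0.06, and 1 gene was higher and 0 lower at an unadjusted edgeR p under 0.05. That gene was Ctsd, encoding the lysosomal protease cathepsin D, at 1482 and 1547 CPM in control and 1765 and 1825 CPM in EGCG libraries. Both EGCG libraries were above the control libraries, with a log2 fold change of 0.25 (SE 0.08, adjusted p of 0.230 by edgeR QL). March8, a ubiquitin ligase with class II among its targets, had 0.14 (SE 0.09), and Sppl2a, the protease that clears the last fragment of the invariant chain, had -0.12 (0.08). Named after its values were seen, Ctss, the cathepsin S gene whose product trims the invariant chain, was at 371.4 and 340.8 CPM in control and 290.98 and 357.9 CPM in EGCG libraries. Control replicate 1 was the highest and EGCG replicate 1 the lowest library for Ctss, as for Ciita, H2-DMa, Cd5l and Mrc1. Because Ctss was chosen with its values known, this likeness is given only as a description.

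Of 10 other costimulatory and coinhibitory ligands, 8 were tested and 0 were called by edgeR or DESeq2. Their median was 0.01, and the unadjusted edgeR p was under 0.05 for 2 lower genes and 1 higher gene. Cd274, which encodes PD-L1, was at 140.4 and 135.4 CPM in control and 110.4 and 118.5 CPM in EGCG libraries. These groups did not overlap, with a log2 fold change of -0.27 (SE 0.08, adjusted p of 0.188 by edgeR QL). Pdcd1lg2, which encodes PD-L2, had -0.52 (SE 0.17, adjusted p of 0.235), and Cd83, a surface protein that stabilizes class II and CD86 on dendritic cells, had 0.19 (0.08, adjusted p of 0.344). Cd70 had no counts in any library. Taken alone, a library with 0 counts leaves room for an expected count of up to about 3.

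The sorted cells carried the markers of their label. Transcripts that mark cells that normally express class II were also detected, several of them at low counts. Ly6g, a target of the Gr-1 sort that was named after its values were seen, was at 1017 ± 104 CPM in control and 1082 ± 166 CPM in EGCG libraries (SD, n = 2 each). The most abundant of the 12 neutrophil markers were S100a9, S100a8 and Ngp. The list summed to 59544 and 71030 CPM in control and 79731 and 70423 CPM in EGCG libraries, most of it from S100a9 and S100a8. In log2 fold change 8 of the 12 were above and 4 below 0. Without overlap of the groups, 2 were higher and 2 lower, beside 21.5% and 21.2% of all tested genes. S100a8, a subunit of calprotectin, was at 14461 and 18163 CPM in control and 22838 and 19476 CPM in EGCG libraries, without overlap, and its log2 fold change was 0.38 (SE 0.12, unadjusted p of 0.00657 and adjusted p of 0.228 by edgeR QL). The log2 fold change was 0.21 (SE 0.12) for S100a9 and 0.13 (SE 0.09) for Ngp, neither with an unadjusted p under 0.05. In bulk RNA, fewer cells of a type and less RNA per cell cannot be told apart. All 14 B cell markers were detected, and their summed level was 1961 and 2061 CPM in control and 2175 and 2221 CPM in EGCG libraries, most of it from Ighm. Of these markers 12 were above and 2 below 0 in log2 fold change, with a median of 0.13 and 0 calls by edgeR or DESeq2 (1 higher and 0 lower at an unadjusted p under 0.05 by edgeR). Cd79a was at 72.5 and 75.7 CPM in control and 86.8 and 78.9 CPM in EGCG libraries, and Cd79b at 113.5 ± 12.0 against 121.7 ± 4.05 CPM.
The 12 macrophage markers summed to 432.8 and 419.03 CPM in control and 329.2 and 352.0 CPM in EGCG libraries, with 10 below and 2 above 0 and a median of -0.29. By edgeR 0 were called (5 lower at an unadjusted p under 0.05), whereas DESeq2 called Cd5l and Mrc1, the latter named for this call, as lower, with adjusted p values of 0.0381 and 0.0463. The adjusted p by edgeR QL was 0.107 for Cd5l and 0.0870 for Mrc1. Adgre1, Vcam1 and Cd5l were the most abundant of this list, at 212.1 ± 22.8, 54.3 ± 3.16 and 47.9 ± 10.9 CPM in control and 175.5 ± 8.08, 46.4 ± 4.26 and 31.8 ± 4.31 CPM in EGCG libraries.
The 10 markers of conventional dendritic cells summed to 167.3 and 155.2 CPM in control and 151.3 and 170.1 CPM in EGCG libraries. Itgax made up most of this sum (102.6 ± 6.81 against 95.9 ± 9.15 CPM). It was followed by Ccr7 (35.6 ± 0.358 against 44.2 ± 3.46 CPM, log2 fold change 0.31, adjusted p of 0.218 by edgeR QL) and Batf3 (5.67 ± 0.736 against 4.68 ± 1.46 CPM). Ccr7 was 1 of 2 genes above 0 in this list, and 8 were below. Xcr1, with only 5 to 16 counts a library, had -1.15 (SE 0.53, adjusted p of 0.405 by edgeR QL). The 8 plasmacytoid dendritic cell markers summed to 60.7 and 64.2 CPM in control and 58.5 and 65.4 CPM in EGCG libraries. Bst2 and Tcf4 gave most of that level. The 9 monocyte markers summed to 1128 and 1093 against 1044 and 1051 CPM, and the 8 T cell markers to 104.4 and 118.02 against 121.9 and 123.1 CPM. Most of the T cell sum came from a single gene, Cd3d (80.6 ± 7.57 against 88.9 ± 1.77 CPM). The median log2 fold change was -0.14 for conventional and 0.17 for plasmacytoid dendritic cell markers, -0.05 for monocyte, 0.06 for neutrophil and 0.14 for T cell markers. In these 5 lists edgeR and DESeq2 called 0 genes, and edgeR gave 4 genes at an unadjusted p under 0.05 in the dendritic cell and monocyte lists and 1, S100a8, in the neutrophil list. None of the marker genes was at 0 in all libraries, but some were near it. Clec9a of the conventional list had 16 to 29 counts a library, and Siglech of the plasmacytoid list had 23 to 38. The part of these cells in the class II counts was not tested. DESeq2 gave no adjusted p for 2 of the 4 further chains, 1 of the 11 loading genes, 4 of the 8 ligands, 1 of the 14 B cell, 4 of the 12 macrophage, 8 of the 10 conventional and 6 of the 8 plasmacytoid dendritic cell, 2 of the 9 monocyte and 7 of the 8 T cell markers, so its counts cover the rest of each list.

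**Figure D5:**
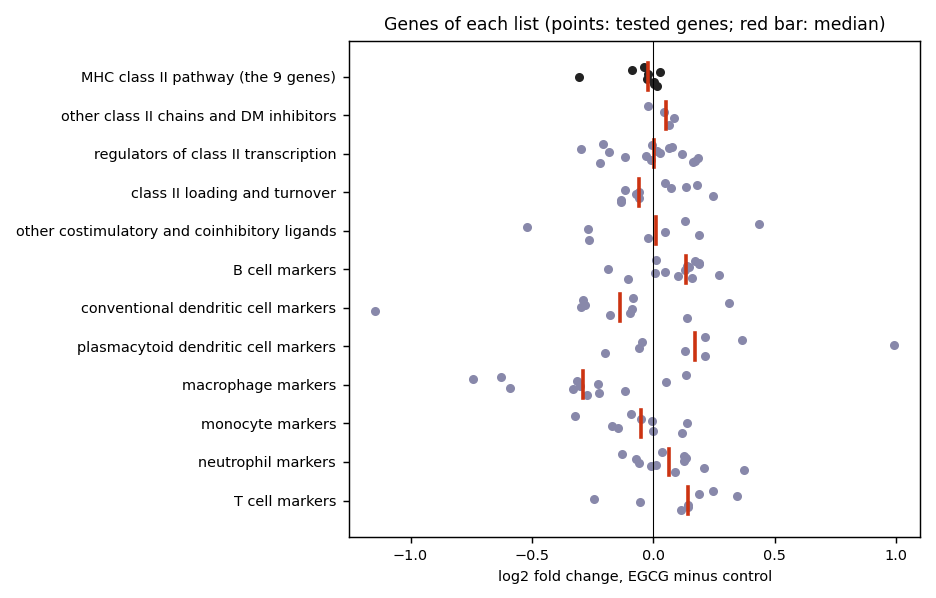
Log2 fold change of EGCG against control (horizontal axis) for each tested gene of the class II genes, of 4 related lists and of markers of 7 cell types, with the median of each list as a red bar. The class II genes lie near 0 apart from Ciita, with a median of -0.02, while the macrophage markers have a median of -0.29 and the B cell markers one of 0.13.

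Across 13123 genes with a mean of at least 1 CPM, the 5 genes whose log2 CPM over the 4 libraries lay nearest to the mean profile of H2-Aa, H2-Ab1, H2-Eb1 and Cd74 were Fem1a, Mief1, Bckdk, Dclre1a and Nt5c, with distances from 0.0092 to 0.02. Fem1a, the nearest, was at 50.4 and 45.8 CPM in control and 44.9 and 51.4 CPM in EGCG libraries. With 4 libraries, many genes fall on any one profile, and this likeness is given as a description.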

How the data were processed

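RNA-seq counts of 4 MDSC libraries (2 control, 2 EGCG, grouped by their labels) were used. The authors aligned reads with STAR 2.6.0c to GRCm38, counted them with featureCounts 1.6.2 on Ensembl release 91 genes without regard to strand, and deposited whole-number counts, which are not normalized. There were 0 columns of other samples and 0 rows without a gene.

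From the counts, edgeR 4.0.16 (R 4.3.3; filterByExpr with a minimum count of 10, TMM, quasi-likelihood test in its legacy form) compared EGCG with control over 14682 genes with Benjamini-Hochberg adjustment, as in the study's methods, which name no filter or scaling. The standard error is the log2 fold change divided by the square root of F, and log2 CPM used a prior count of 2. The test was first checked on simulated data. With 2 libraries against 2, an exact permutation test cannot go below p = 0.333. Mean chi-square of counts per gene was 6.25 between control and 6.07 between EGCG libraries, so no library was a duplicate. Control replicate 1 differed most from the EGCG libraries (14.4 and 11.2). Control replicate 2 was at 6.90 and 6.14 from EGCG replicates 1 and 2, about as near as to control replicate 1. The contrast between the groups thus leans on control replicate 1. GENCODE M21 (GRCm38) gave positions and exonic lengths, with 53274 of 53465 identifiers matched. Promoters came from RefSeq (GRCm38.p6).

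The members and lists were chosen with earlier results of these data known. A gene of the regulator list is not reported here and was left out of its counts. Named genes are the members, the 5 nearest profiles, and of each pathway list the genes called or the 3 with the smallest p. Of each marker list, up to 3 most abundant genes and any at 0 are named. Ly6g, Mrc1, Ctss, Xcr1, Clec9a and Siglech were added after their values were seen. Alternatives were other filters, scalings and test forms, DESeq2 1.42.0, a length correction (loess, span of 0.4), a replicate block, the DM beta genes summed, and leaving out each library.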

Additional observations from a re-analysis of the deposited data

How the results depend on the processing

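Under 11 other settings, 89 of 97 values of the members kept their direction and 0 had an adjusted p under 0.05 (lowest 0.251, Ciita with library size only). The values that changed sign were all near 0: with library size only, H2-Aa went to -0.02, H2-Ab1 to -0.0342, H2-Eb1 to -0.0348 and H2-DMb1 to -0.0085; with the length correction, H2-Ab1 went to -5e-04 and H2-Eb1 to -0.0145; and H2-Eb1 went to -0.0012 with a filter of at least 1 CPM in 2 libraries and to -2e-04 with the replicate block. With a library left out, 25 of 36 values kept their direction. The range was -0.0385 to 0.0716 for H2-Aa, -0.12 to 0.14 for H2-Ab1, -0.0768 to 0.0786 for H2-Eb1, -0.15 to 0.0853 for Cd74, -0.0308 to 0.10 for H2-DMb1, -0.0823 to 0.0184 for Cd86, -0.13 to -0.04 for H2-DMb2, -0.04 to -0.005 for H2-DMa and -0.50 to -0.08 for Ciita. The members' median was lowest without EGCG replicate 2, at -0.0639, and highest without control replicate 1, at 0.0503, and the number called lower was from 0 to 1, the latter being Ciita without control replicate 2. Such fits keep 1 library in an arm, which is assumed to vary like the other group. Over all genes, 20 were called lower and 2 higher. The counts were 0 and 0 without a filter on low counts (1018 and 777 at an unadjusted p under 0.05 by edgeR), 135 and 16 with library size only, 49 and 14 with robust estimation, 50 and 14 with DESeq2, 9 lower with upper-quartile scaling, 3 lower with the length correction, 6 higher with the newer form of the test and 1 higher with the CPM filter. Leaving out a library gave 72 to 235 lower and 5 to 119 higher genes, the most without control replicate 2. The cause of these shifts was not tested. The replicate number as a block gave 24 lower and 6 higher genes. Deviations of same-numbered libraries correlated at 0.0336 across 14682 genes. Nothing in the sources used here says whether these libraries share more than a number. The block changed no call of the members, while the unadjusted edgeR p of Ciita was 0.0558 with it. Depth limits H2-DMb1 most among the members, with 220 to 245 counts a library.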
